A study of Mus musculus with 58 samples.

Results

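The forestomach pieces of these mice fell into 2 sets according to how much glandular stomach RNA they held, and the sets are described here across genes, without dose as the question. All 19 forestomach arrays were used, of 58 arrays in the series. They were split on the log2 ratio of the Chia1 probe in the authors' table, Chia1 being an acidic chitinase that the gland cells of the mouse stomach secrete. The 11 arrays above 4.5 are called glandular-containing and the 8 arrays at or below 4.5 are called the other set. Because the sets were chosen from the expression of these same arrays, every difference between them in forestomach genes is a description without a test, and Chia1 itself is left out of the findings.

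The series measured gene expression in forestomach, liver and lung of Muta™Mouse males aged 10 weeks, a transgenic line with a bacterial lacZ reporter for scoring mutations. Every mouse was gavaged with olive oil for 28 days, alone in group D0 or carrying the polycyclic aromatic hydrocarbon benz(a)anthracene (BaA), at 20 mg/kg-bw/day in group D1, 40 in D2 and 80 in D3. Tissues were collected 72 h after the last dose, and RNA was taken from random sections of each tissue. Each array set the Cy5-labelled RNA of 1 mouse against Cy3-labelled Universal Mouse Reference RNA, a pool from cell lines, and no array had the dyes swapped.

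The mouse forestomach is the proximal part of the stomach and stores food. It is lined by a keratinised stratified squamous epithelium and holds no glands. Beyond a visible ridge begins the glandular stomach, whose mucosa is a columnar epithelium with acid-secreting parietal cells, enzyme-secreting chief cells, surface (pit) and neck mucous cells, and endocrine cells. Both parts share a wall of smooth muscle, nerves, vessels and connective tissue. In bulk RNA, fewer cells of a type and less RNA per cell cannot be told apart.

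The Chia1 ratios in the authors' table lay between 0.02 and 0.70 in the other set. In the glandular-containing set they lay between 4.75 and 8.78. The array just inside the split was D3 mouse 17 (4.75) and the next one above it was D1 mouse 8 (7.00), while the array just below the split was D2 mouse 11 (0.70). No array lay between 0.70 and 4.75, and mouse 17 stood apart from the other 10 glandular-containing arrays. A split at the widest gap in Pgc, which encodes a pepsinogen, gave the same sets. A split at the widest gap in Muc5ac, which encodes the mucin of surface mucous cells, moved 1 array, mouse 17, to the other set.

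The sets were unequally spread over the slides and the dose groups. Of the arrays on slides 1, 2 and 3, 2 of 6, 3 of 7 and 6 of 6 were glandular-containing (exact permutation test of the chi-square statistic 6.50, p = 0.0617). The 6 arrays of slide 3 had 38.4 to 42.1% of gene spots well above background in Cy5, below the 52.4 to 69.2% of the 13 arrays of slides 1 and 2. The mean share was 47.7% ± 8.14 (SD, n = 11) in the glandular-containing set and 57.5% ± 5.17 (n = 8) in the other (difference of -9.83 points, exact two-sided permutation p = 0.0111). Within slides 1 and 2 the difference was -1.11 points (exact permutation within slides, p = 0.710). The share comes from the same Cy5 scans as the Chia1 ratio, so it was not independent of the split. The test over all arrays also treated the slides as alike. The set and slide 3 cannot be told apart, so values from slides 1 and 2 alone, 5 against 8 arrays, are given beside some of the results. Results printed without them can change too. The median differences of parietal, chief, pit and neck cell genes were 2.07, 3.12, 4.19 and 3.83 on all arrays. On slides 1 and 2 they were 1.84, 2.67, 3.64 and 3.77. Of the dose groups, 1 of 4 arrays at D0, 5 of 5 at D1, 2 of 5 at D2 and 3 of 5 at D3 were glandular-containing (exact permutation test of the chi-square statistic 6.08, p = 0.133). The mean dose was 38.2 against 35.0 mg/kg-bw/day, a difference of 3.18 (exact two-sided permutation p = 0.881).

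The reference channel was not constant for the brightest gland genes. It received the same RNA on every array, yet its signal was higher where the tissue signal was high. After quantile normalisation of each channel over the arrays, the Cy3 signal of Pgc lay between 5.44 and 5.66 (log2) in the other set and between 7.15 and 14.23 in the glandular-containing set. Ghrl, which encodes the hunger hormone ghrelin, went from 6.20 to 6.68 in the other set to 7.23 to 14.49. Cy3 did not stay level between tissues either: Alb, the liver's albumin gene, had a mean scanned Cy3 signal of 12.69 (log2) in liver and 5.45 in lung, and Sftpc, a surfactant gene of the lung, had 12.03 in lung and 5.44 in liver. The log2 ratio therefore understates the difference between sets for such genes, and the Cy5 difference is given beside it on its own quantile scale, so that Cy5 minus Cy3 need not equal the ratio. The cause of this rise in Cy3 was not tested.

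**Figure D1:**
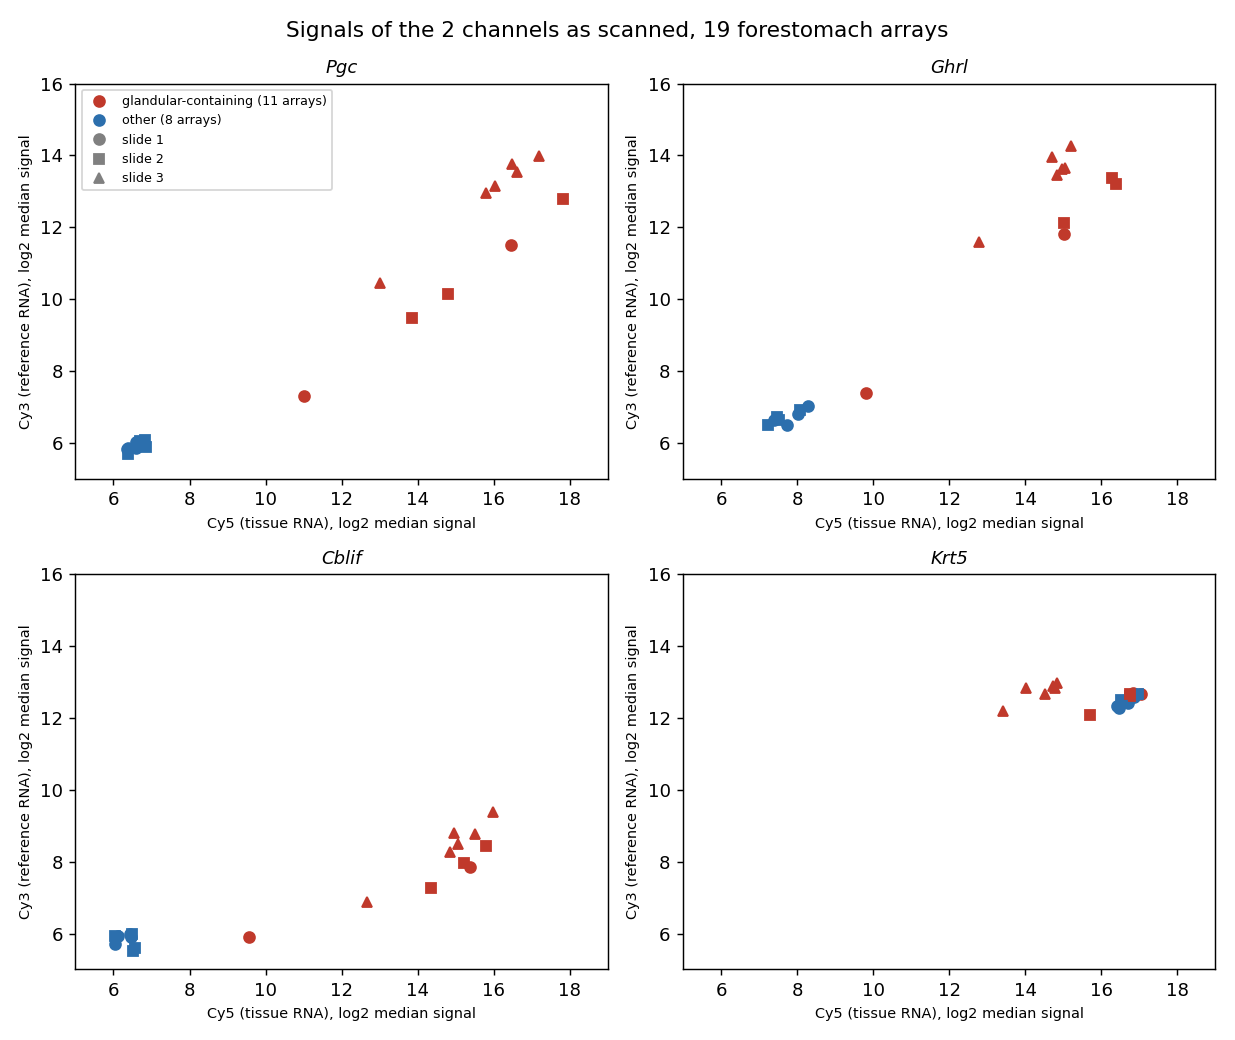
Scanned signals (log2 of the median signal) of Cy5, the tissue RNA, on the horizontal axis and of Cy3, the reference RNA, on the vertical axis for 4 genes, each point being 1 of the 19 forestomach arrays, coloured by set and shaped by slide. For Pgc, Ghrl and Cblif the Cy3 signal climbs with Cy5 from the other set (blue) to the glandular-containing set (red), with mouse 17 in between, while for Krt5 both sets share 1 level of Cy3 and the slide 3 arrays lie lower in Cy5.

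Across the genome, few genes separated the sets completely. A gene was counted when the arrays of one set all lay beyond those of the other and the mean log2 ratios differed by at least 2-fold, with the brightest probe standing for the gene. Of 15098 genes tested, 124 (0.821%) were higher in the glandular-containing set and 4 (0.0265%) were lower. On slides 1 and 2 alone, 134 (0.888%) were higher, 110 of them shared with the 124, and 1 (0.00662%) was lower. Without mouse 17, whose gland genes were lower than those of the other 10 arrays, 390 (2.58%) were higher, all 124 among them, and 8 (0.053%) were lower. The median difference over all tested genes was -0.03 with loess normalisation and -0.67 when arrays were centred on their medians instead, so small positive differences depend on that choice. Median centring left 58 genes higher, 55 of them shared with the 124. Whatever its size or overlap, the difference was positive for 6698 of the 15098 genes and negative for 8400. These are the background for the counts of direction in the lists below. The filter kept genes well above background on at least 4 arrays. It admitted 92 genes measured on no array of the other set, which could hardly come out lower.

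Arrays of the other set resembled each other closely. Their ratios correlated across genes with r of 0.964 to 0.980 (median 0.973), whereas pairs of glandular-containing arrays ranged from 0.801 to 0.973 (median 0.931) and pairs across the sets from 0.777 to 0.974 (median 0.880). Genes are not independent replicates, so these values are descriptive. All 8 arrays of the other set lay on slides 1 and 2, while 6 of the 11 glandular-containing arrays lay on slide 3. Spread from tissue and spread from slide cannot be told apart in these correlations. A first principal component held 57.0% of the variance among arrays and the second held 9.27%.

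Parietal cell genes were higher in the glandular-containing set for all 13 members tested of 14 listed (median difference 2.07 on the log2 ratio scale, against -0.03 for all tested genes), and 6 of the 13 separated the sets. Of the 13, 6 were well above background on no array of the other set. They passed the filter only through the glandular-containing arrays and could hardly come out lower. Parietal cells acidify the stomach with a proton pump, and its catalytic subunit is encoded by Atp4a. The log2 ratio of Atp4a had a lowest, median and highest value of 0.79, 5.94 and 6.52 in the glandular-containing set and of -0.16, 0.06 and 0.20 in the other. Its mean was 5.40 ± 1.63 (SD, n = 11) against 0.04 ± 0.12 (n = 8), and it was well above background on 11 of 11 arrays and on 0 of 8. Every glandular-containing array lay above every other array, mouse 17 being the lowest. In Cy5 the difference was at least 65.3-fold. This is a bound for a gene that no array of the lower set measured, computed after loess and between-array scaling of both channels and after quantile normalisation of Cy5 alone. The smaller of both is printed for each gene, and it is open to dye bias since no dyes were swapped.

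Atp4b, which encodes the pump's other subunit, was likewise lowest in mouse 17 among the glandular-containing arrays. Its ratio was 3.26, 6.36 and 6.79 (lowest, median and highest) in the glandular-containing set and -0.09, 0.05 and 0.46 in the other, a mean of 6.06 ± 0.97 against 0.11 ± 0.19. The pump recycles potassium through a channel whose accessory subunit is encoded by Kcne2. Kcne2 ran from 0.26 to 6.41 with a median of 5.63, against -0.19 to 0.07 in the other set, and was at least 16.6-fold higher. Clic6, encoding a chloride channel-like protein, ran from 1.38 to 4.95 against -0.06 to 0.35 and was at least 75.6-fold higher. The sodium-proton exchanger gene Slc9a4 (difference 2.07, at least 2.93-fold) and the potassium channel gene Kcnj15 (1.86) also separated the sets, although a second probe of Kcnj15 differed by only 0.41.

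The remaining parietal genes overlapped between the sets, 3 of them through mouse 17 alone. Kcnq1, the channel that Kcne2 joins, was 0.50 in mouse 17 against 0.39 to 0.91 in the other set, while its glandular-containing median was 4.98. Esrrg, a nuclear receptor of parietal cells, was 0.02 in mouse 17 with a median of 4.26. Slc26a9, Slc4a2 and Car2, which move or make bicarbonate and chloride, differed by 0.78, 0.92 and 0.31. Slc4a2 and Car2 are widely expressed. Without mouse 17, 9 of the 13 separated the sets.

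Chief cell genes were higher for 4 of 5 tested members (median 3.12), and 3 of them separated the sets. Pgc had a lowest, median and highest ratio of 3.57, 4.64 and 5.61 in the glandular-containing set and of 0.07, 0.28 and 0.67 in the other. The mean difference was 4.37 as a loess-normalised ratio. On the quantile scale of each channel it was 9.21 in Cy5 and 6.31 in Cy3. Cblif, which encodes gastric intrinsic factor, ran from 3.43 to 8.62 (median 7.53) against -0.30 to 0.62 and was at least 330-fold higher. Bhlha15, a transcription factor of enzyme-secreting cells, ran from -1.88 to 2.85 against -2.36 to -2.10. Tnfrsf19, a receptor expressed in stem and basal cells of several epithelia, was lower (-0.65) with overlapping arrays. Lipf, the gastric lipase gene, was well above background on only 2 arrays and was not compared.

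The promoters of 3 gland genes are shown because they stand for the parietal, chief and pit lists and differ in the motifs they hold. Each is the stretch of 250 bases before the RefSeq start on the plus strand of GRCm38.p6, with capitals marking the motifs AGATAA (bound by GATA factors) and TATAAA (the TATA box), searched on both strands. The genes lie at chr7:30711959-30712208 for Atp4a, chr17:47726592-47726841 for Pgc and chr6:87373115-87373364 for Gkn2.
Atp4a: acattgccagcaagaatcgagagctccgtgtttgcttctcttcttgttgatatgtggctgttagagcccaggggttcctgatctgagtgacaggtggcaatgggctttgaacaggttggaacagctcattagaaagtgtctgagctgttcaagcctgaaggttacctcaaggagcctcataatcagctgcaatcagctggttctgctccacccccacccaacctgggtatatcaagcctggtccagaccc
Pgc: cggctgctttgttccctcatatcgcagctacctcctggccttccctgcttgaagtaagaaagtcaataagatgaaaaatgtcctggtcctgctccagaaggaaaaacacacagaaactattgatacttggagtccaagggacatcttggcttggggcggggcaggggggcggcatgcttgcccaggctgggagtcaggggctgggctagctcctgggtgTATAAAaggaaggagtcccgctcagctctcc
Gkn2: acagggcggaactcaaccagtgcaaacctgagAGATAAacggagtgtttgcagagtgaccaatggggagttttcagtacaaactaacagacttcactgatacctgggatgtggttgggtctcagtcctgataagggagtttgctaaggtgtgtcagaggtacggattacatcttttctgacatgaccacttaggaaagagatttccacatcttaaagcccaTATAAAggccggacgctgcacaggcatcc
The Atp4a stretch held neither motif, Pgc held TATAAA from 31 bases before its start, and Gkn2 held AGATAA from 218 bases and TATAAA from 29 bases before it. Of the tested genes of the parietal, chief, pit and neck lists, 17 had a promoter in the RefSeq table. Over 250 bases before and 50 after the start, AGATAA was found in 5 of the 17 (29.4%, against 11.4% of 27025 promoters) and TATAAA in 6 (35.3%, against 14.2%). AAGGTCA, a motif of estrogen-related receptors, was found in 0 of the 17, against 4.66% of all promoters. These are matches of letters and not measured sites.

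Mucous cell genes had the largest list medians, 4.19 for the 10 pit cell genes and 3.83 for the 3 neck cell genes tested. Only 3 and 1 of them separated the sets, and some pit genes were also measured on arrays of the other set. Gkn2, encoding a gastrokine secreted onto the stomach surface, was 5.64 to 8.55 in the glandular-containing set and 0.91 to 6.13 in the other. Its 2 highest arrays in the other set, D2 mouse 11 (6.13) and D3 mouse 16 (5.98), lay above mouse 17, and the other 6 lay at 2.91 or below. Tff1, a trefoil peptide of pit cells, was likewise 5.61 in mouse 11 and 5.55 in mouse 16, against 2.52 to 4.40 in the other 6 arrays and 5.57 to 6.74 in the glandular-containing set. Atp4a in these 2 arrays was -0.16 and 0.08. These 2 arrays thus carried transcripts of surface mucous genes without Atp4a well above background.

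Muc5ac was well above background on every array of both sets. Its ratio was 2.95, 5.75 and 6.25 (lowest, median and highest) in the glandular-containing set and 1.98, 2.36 and 3.26 in the other, and only mouse 17 lay within the range of the other set. The difference was 2.95 as a ratio and 5.41 in Cy5. Anxa10, an annexin of gastric epithelium, differed most of all genes tested (7.35), with 2.68 in mouse 17, 7.43 to 9.66 in the other 10 glandular-containing arrays and -0.05 to 2.90 in the other set. Psca, Sult1c2 and Gkn1, encoding a surface antigen, a sulfotransferase and a gastrokine, separated the sets, with differences of 4.83, 6.05 and 3.78. Ctse, the gene of cathepsin E, differed by 6.36 and overlapped through mouse 17 (-0.03) and mouse 11 (0.03). Without mouse 17, 8 of the 10 pit genes and 3 of the 3 neck genes separated the sets.

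Of the neck genes, Tff2, a trefoil peptide of mucous neck cells, was 2.44, 5.16 and 5.70 (lowest, median and highest) in the glandular-containing set and -0.03, 0.25 and 1.28 in the other. It separated the sets, and the difference was 4.54 as a ratio and 8.01 in Cy5. Gkn3 and the water channel gene Aqp5 differed by 3.83 and 2.55, with mouse 17 inside the range of the other set for both (0.58 and -2.45). Muc6, the mucin of neck cells, had no probe matched here.

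**Figure D2:**
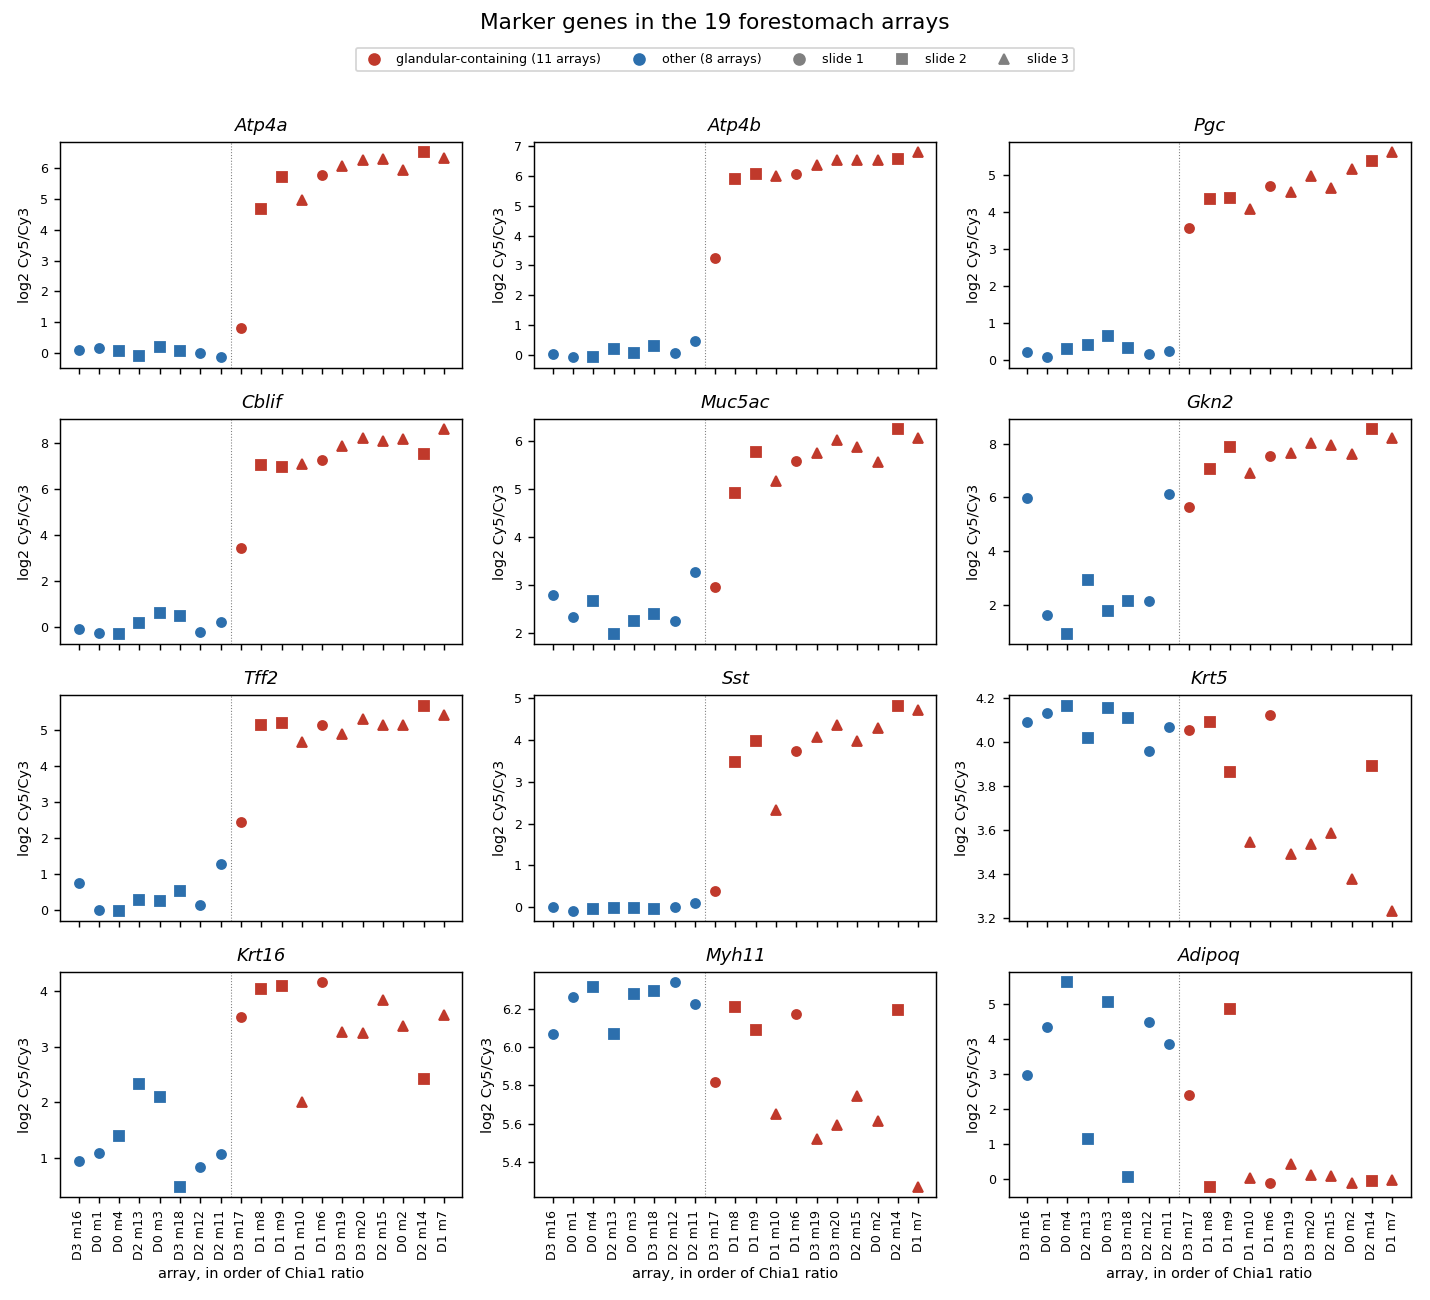
Log2 ratios of Cy5 to Cy3 (vertical axes, each with its own range) of 12 genes on the 19 forestomach arrays, ordered from left to right by their Chia1 ratio, with the split as a dotted line, sets in colour and slides by symbol. Atp4a, Atp4b, Pgc, Cblif, Tff2 and Sst step up at the split with mouse 17 lowest, Gkn2 is high on 2 arrays left of it, Krt16 is mostly higher to its right, Krt5 and Myh11 are lowest on slide 3, and Adipoq varies most among the blue points.

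Endocrine cell genes were higher for 10 of 11 tested members, Gast being level (median 0.97), and 2 separated the sets. Of the 11, 3 passed the filter only through the glandular-containing arrays. Sst encodes somatostatin, the hormone of D cells that restrains acid secretion. Its ratio was 0.38, 3.98 and 4.82 (lowest, median and highest) in the glandular-containing set and -0.08, -0.03 and 0.10 in the other, and it was at least 16.0-fold higher. Ghrl was 2.27 to 3.24 against 0.40 to 1.04, a difference of 2.24 as a ratio and 7.54 in Cy5. The secretory granule genes Chga and Chgb differed by 1.20 and 1.47 with overlapping arrays. Hdc, the histamine-making enzyme of enterochromaffin-like and mast cells, differed by 1.02.

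Gast, which encodes gastrin, the hormone of G cells in the antrum, differed by 0.00. It was well above background on 4 of 11 glandular-containing and 5 of 8 other arrays. Its ratio ran from -0.09 to 1.17 and from 0.05 to 0.60, the highest value being that of mouse 17. Gastrin therefore did not follow the parietal and chief cell genes across these arrays.

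Genes of columnar epithelium were higher for 12 of 12 members (median 2.00), with 3 separating the sets. Agr2, needed for mucin folding, ran from 1.51 to 7.35 against -0.08 to 1.03, and the keratin gene Krt20 ran from -1.26 to 3.70 against -3.14 to -1.61. Cldn7, a tight junction gene, differed by 1.52. Krt8 and Krt18, the keratin pair of simple epithelia, differed by 4.61 and 4.58, and mouse 17 lay within the other set for both (-3.52 and -4.23). Cldn18, a stomach claudin, was well above background on 10 of 11 and 0 of 8 arrays and was at least 3.30-fold higher. Cdh1, the E-cadherin gene that both epithelia express, differed by 0.32.

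Among transcription factors of the foregut, 9 of 14 tested were higher (median 1.25), beside 6698 of 15098 over all genes, and 2 separated the sets. Gata4, an endoderm factor, was -0.65 to 2.78 against at most -0.72, and Spdef, a factor of mucous cells, was 0.62 to 5.69 against -0.43 to -0.06. Foxa2 differed by 4.34, and was well above background on 10 of 11 and 0 of 8 arrays (at least 11.5-fold), mouse 17 being at -0.97. Foxa3 and Hnf4a differed by 2.83 and 3.13 with mouse 17 at 0.16 and 0.97. Sox2, Trp63 and Barx1, the last a factor of the stomach mesenchyme, were lower by 0.61, 0.51 and 0.58. On slides 1 and 2 the differences of these 3 were -0.09, -0.20 and -0.07, and a second Trp63 probe differed by 0.04.

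Outside the lists, the 12 genes with the largest positive differences included secreted enzymes and antimicrobial proteins. Clps and Pla2g1b, encoding the lipase cofactor colipase and a secreted phospholipase, both best known from the pancreas, differed by 5.77 and 4.74 as ratios and by 9.82 and 9.41 in Cy5. Pdia2, a disulfide isomerase, was -0.30 to 0.00 in the other set and 2.26 to 7.21 in the glandular-containing set. Try4 and Try5, trypsinogen genes of a large family whose near-identical copies can share probe signal, differed by 4.08 (at least 11.4-fold in Cy5) and 4.01. Of 12 listed pancreas genes, given beside these, 7 were tested, 0 separated the sets and the median difference was 0.04. Without mouse 17, 2 of the 7 were counted as higher. Ctrb1 and Cel, chymotrypsinogen and bile salt lipase, differed by 0.04 and -0.01, and the lipase gene Pnlip was well above background on 0 of 19 arrays. Prss2 and Cela1, a trypsinogen and an elastase, differed by 1.59 and 1.97 with overlapping arrays.

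Other genes of that group were of surface defence or of unknown relation to the lists. Ltf, the iron-binding lactoferrin, was 1.16, 5.26 and 6.12 (lowest, median and highest) against -0.10, 0.08 and 0.33 and was at least 26.9-fold higher. Its order of arrays differed from that of the gland genes, since mouse 17 was at 4.81 and the lowest array was D1 mouse 10. Bpifb1, a secreted airway and gut defence protein, differed by 4.58. Tspan1, a tetraspanin, Mal, an apical sorting protein, and the detoxifying enzyme genes Cyp2c66 and Ces2c differed by 6.39, 4.63, 3.98 and 3.92. The uncharacterised gene 0610040J01Rik differed by 4.12.

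Of 8 intestinal genes 5 were tested, and all 5 were higher in the glandular-containing set (median 1.25, or 1.43 on slides 1 and 2). Vil1, encoding the villin of brush borders, was 0.38 to 4.11 against -0.21 to 0.08 (at least 4.27-fold), and it was the 1 of 5 tested genes that separated the sets. Fabp1, the liver-type fatty acid binding protein, overlapped, its highest value being 4.40 in D2 mouse 11 of the other set. Alpi, Muc2 and Sis, the alkaline phosphatase, goblet cell mucin and sucrase of intestine, were well above background on 0 of 19 arrays.

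Of 7 mast cell genes, the chymase genes Mcpt1 and Mcpt2, typical of mucosal mast cells, separated the sets. Mcpt1 was 0.01, 2.60 and 4.20 (lowest, median and highest) against -0.22, -0.06 and 0.01 (at least 5.91-fold in Cy5), and Mcpt2 was 0.42, 3.46 and 4.84 against -0.20, 0.04 and 0.26. The proteases of connective tissue mast cells Mcpt4, Tpsb2 and Cma1 differed by -0.20, 0.06 and -0.71, with overlapping arrays. Cpa3 and Kit, which both kinds express, differed by -0.72 and 0.41.

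Genes of the respiratory chain and citrate cycle were higher for 22 of 22 members (median 0.46), none of them counted (0 called), but the median was -0.61 with median centring, beside -0.67 for all genes. Parietal cells are among the cells richest in mitochondria. Cox5a, a subunit of cytochrome oxidase, had the largest difference (1.04), 0.12 to 1.94 against -0.11 to 0.16. Its lowest glandular-containing array, mouse 17, lay within the other set. Without mouse 17, 1 member of the list was counted. Sdhb was 0.22 to 1.49 against 0.06 to 0.20 and Cox5b was 0.40 to 1.19 against 0.12 to 0.29, both without overlap but under 2-fold. The level of the list on an array, the median of its members after centring each gene over the 19 arrays, was -0.35 to -0.19 in the other set, -0.18 to 0.50 in the glandular-containing arrays of slides 1 and 2, and -0.08 to 0.80 on slide 3. On slides 1 and 2 the median difference was 0.30.

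Proliferation genes and secretory endoplasmic reticulum genes differed little. Of 11 proliferation genes 10 were higher (median 0.40), all with overlapping arrays. With median centring, which put the median of all tested genes at -0.67, their median was -0.45. Of 10 endoplasmic reticulum genes 9 were higher (median 0.20), and the median was -0.77 with median centring. B and plasma cell genes had a median of 0.40 (-0.35 with median centring and 0.08 on slides 1 and 2). None of these 3 lists had a member that separated the sets by 2-fold (0 called).

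**Figure D3:**
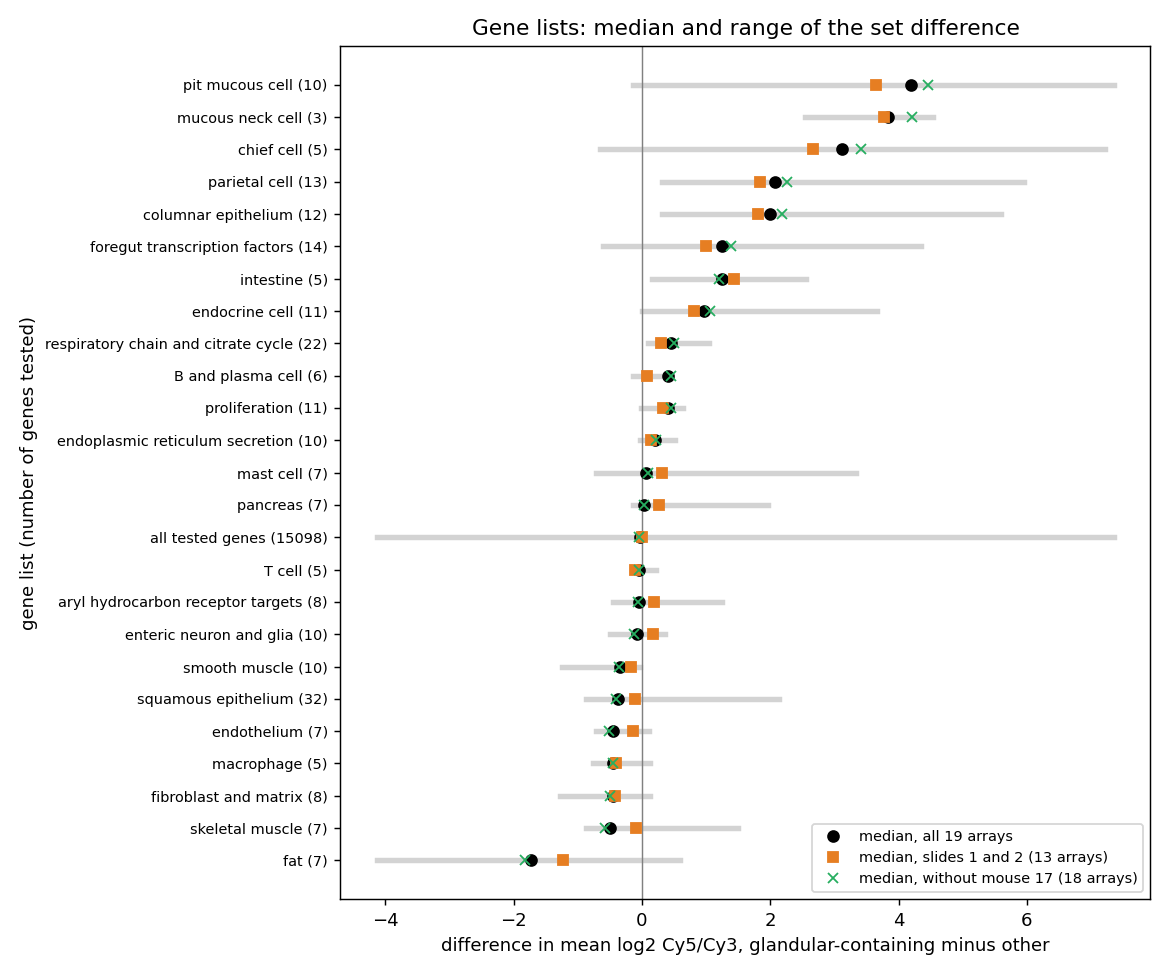
Difference in mean log2 ratio, glandular-containing minus other, for 24 gene lists and for all tested genes. Grey bars give the range over the tested members, black points the median with all 19 arrays, orange squares the median on slides 1 and 2 and green crosses the median without mouse 17. The gland and columnar lists lie to the right, from 0.97 to 4.19, the fat list lies at -1.73, and the squamous and endothelium medians move toward 0 on slides 1 and 2.

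Of 32 squamous epithelium genes, 26 were lower in the glandular-containing set and 6 higher (median -0.37), but on slides 1 and 2 the median was -0.11. Over all tested genes, 8400 of 15098 were lower. Krt5, the keratin of the basal layer, was 3.23, 3.58 and 4.12 (lowest, median and highest) in the glandular-containing set and 3.96, 4.10 and 4.17 in the other, a difference of -0.38, or -0.08 on slides 1 and 2. The cornified envelope genes Lor and Ivl differed by -0.29 and -0.76 and by -0.14 and -0.31 on those slides. The level of the list on an array was 0.14 to 0.25 in the other set, -0.02 to 0.31 in the glandular-containing arrays of slides 1 and 2, and -0.58 to -0.29 on slide 3. All 6 arrays of slide 3, and 2 of the 5 glandular-containing arrays of slides 1 and 2, lay below the other set. Tissue and slide cannot be told apart for the arrays of slide 3.

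A group of keratins went the other way. Krt16, Krt6a and Krt17, keratins of activated or hyperproliferative squamous epithelium, differed by 2.13, 2.12 and 1.46, and by 2.37, 2.65 and 1.89 on slides 1 and 2. Krt16 was 2.00, 3.54 and 4.16 (lowest, median and highest) in the glandular-containing set and 0.47, 1.07 and 2.33 in the other. Its array of mouse 17 (3.54) lay with the other glandular-containing arrays and not near the other set, unlike the gland genes. Dsc2, encoding a desmocollin that simple and stratified epithelia both use, was 2.39 to 4.58 against 1.78 to 2.35 and was the 1 squamous list member that separated the sets. On slides 1 and 2, 4 members separated them.

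**Figure D4:**
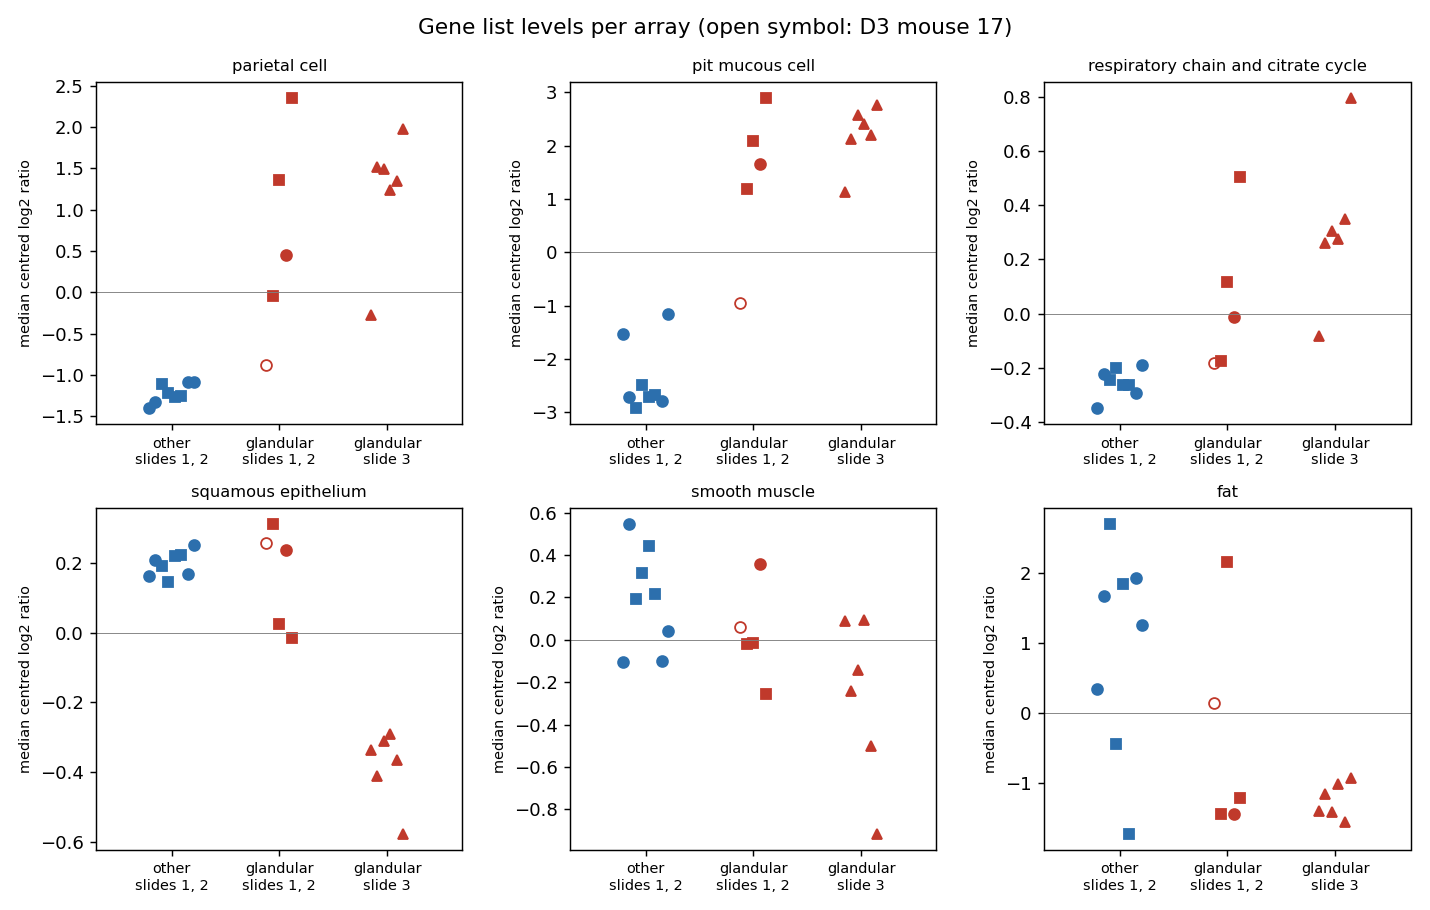
Level of 6 gene lists on each forestomach array (vertical axes, median over members of the log2 ratio after centring each gene over the 19 arrays), for the other set, the glandular-containing arrays of slides 1 and 2, and those of slide 3; the open symbol is D3 mouse 17. Parietal and pit levels lie above the other set on both groups of slides with mouse 17 nearest to it, the squamous level is lowest on slide 3, and the fat level is high for most of the other set and for 1 filled point of slides 1 and 2.

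Genes of the wall were mostly lower in the glandular-containing set without separating it. Smooth muscle genes were lower for 10 of 10 members, beside 8400 of 15098 over all genes (list median -0.34, or -0.16 on slides 1 and 2). Myh11, the smooth muscle myosin heavy chain, was 5.27 to 6.21 against 6.07 to 6.34. Fibroblast, endothelium and macrophage genes had medians of -0.45, -0.45 and -0.45, and -0.42, -0.14 and -0.41 on slides 1 and 2. Lum, encoding the matrix proteoglycan lumican, was 3.32 to 5.28 against 4.96 to 5.94. Enteric neuron and glia genes had a median of -0.08, which turned to 0.18 on slides 1 and 2. T cell genes had a median of -0.05 (-0.11 on those slides) and skeletal muscle genes of -0.50 (-0.09 on slides 1 and 2).

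Fat genes varied most within the other set. Adipoq, the adiponectin gene of fat cells, was 0.04, 4.11 and 5.64 (lowest, median and highest) in the other set and -0.24, 0.03 and 4.86 in the glandular-containing set. It was low on D3 mouse 18 of the other set and high on D1 mouse 9 and D3 mouse 17 (4.86 and 2.39) of the glandular-containing set. Cfd, the adipsin gene, and Retn, the resistin gene, differed by -4.12 and -2.49. The list median was -1.73, and -1.23 on slides 1 and 2, with 0 of 7 members separating the sets. Fat transcripts thus followed the sets only in part.

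The 4 genes counted as lower were Cd209f, a C-type lectin, Synpo2, an actin-binding protein of muscle, Tnxb, the matrix glycoprotein tenascin-X, and Pcolce2, an enhancer of procollagen processing. Synpo2 was 4.90, 6.18 and 6.85 (lowest, median and highest) against 6.88, 7.43 and 7.88, and its other probes differed by -0.64 to -0.51 against -1.39 for the brightest. Cd209f, Tnxb and Pcolce2 differed by -1.46, -1.15 and -1.06. Their differences on slides 1 and 2 were -0.96, -0.81 and -0.98. The next 8 genes whose arrays did not overlap differed by less than 2-fold and included the matrix gene Fbln1 (-0.83), the collagen receptor gene Itga11 (-0.81), Neu3 (-0.92), Gnai1 (-0.86), Pmp22 (-0.76), Fxyd2 (-0.71), Brd2 (-0.68) and 1190005I06Rik (-0.66).

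Aryl hydrocarbon receptor targets, which BaA can induce, did not follow the sets. The 8 genes had a median difference of -0.05, against 0.19 on slides 1 and 2, and 0 were counted. With median centring their median was -0.62, beside -0.67 for all tested genes. Cyp1a1, the receptor's best-known target, was 0.07 to 7.07 in the glandular-containing set and 0.40 to 5.04 in the other. Its highest array in each set belonged to D1 mouse 6 and D2 mouse 11. Gsta1, a glutathione transferase also expressed in gut epithelium, differed by 1.25, with 4.16 in mouse 17, 4.93 to 6.17 in the other 10 glandular-containing arrays and 4.16 to 4.31 in the other set.

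Lung and liver of the same mice, which the split did not use, were tested to ask whether the sets of mice differed elsewhere. With dose group in the model, limma called 0 of 30353 probes (0%) in lung (19 mice) and 0 of 22534 (0%) in liver (18 mice) at an adjusted p of at most 0.05 and at least 1.5-fold. All 5 mice of D1 were glandular-containing, so with dose group in the model they did not inform the set difference. It rested on D0, D2 and D3, with 1 glandular-containing mouse at D0. Unadjusted p-values under 0.05 numbered 1258 and 1038, and the lowest adjusted p-values were 0.143 and 0.917. In lung, Muc5ac differed by -0.15 (SE 0.09, limma adjusted p = 1.00) and Tff2 by -0.41 (SE 0.39, adjusted p = 1.00). In liver, Muc5ac differed by 0.28 (SE 0.19, adjusted p = 0.917) and Pgc by 0.18 (SE 0.13, adjusted p = 0.917). The 0 calls in lung depended on 2 vehicle mice. Without D0 mouse 3 there were 55 calls and without D0 mouse 4 there were 11, while in liver there was 1 without D0 mouse 4.

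The Cy3 signals of the forestomach arrays are also described without a test, since Cy3 is the denominator of the ratio that chose the sets. Of 15098 genes tested by ratio, 12 (0.0795%) had Cy3 signals that were higher in the glandular-containing set without overlap and by at least 2-fold. A Cy3 difference of at least 1 on the log2 scale was found for 43 genes, and of at most -1 for 9. Among the 124 genes that separated the sets by ratio, 22 had a Cy3 difference of at least 1 on the log2 scale and 6 had Cy3 signals that did not overlap between the sets. Their median Cy3 difference was 0.18 and their median Cy5 difference 2.17, beside a median ratio difference of 2.23. Pgc, Ghrl and Pla2g1b had the largest Cy3 differences, 6.31, 6.28 and 6.06.

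Dose was compared with the set as a term in the model, since all 5 arrays of D1 were glandular-containing and 3 of 4 at D0 were not. Limma called 0 probes at D1 (0%, 2060 with an unadjusted p under 0.05), 5 at D2 (0.0155%, 3 higher and 2 lower) and 8 at D3 (0.0247%, 3 higher and 5 lower) of 32330 tested. Without the set there were 0, 4 and 8 calls. With median centring D2 had 1 call and D3 had 0. Leaving out mouse 2 of D0 or mouse 18 of D3 left 1 call at D3, and leaving out mouse 2 of D0 or mouse 11 or 12 of D2 left 2 at D2, so these counts depend on single arrays and on the scaling. The median standard error at D1 was 0.140 with the set and 0.129 without it, while at D2 it was 0.119 against 0.129 and at D3 0.123 against 0.129. The probe that gained a call at D2 was that of Srsf5, a splicing factor, which rose by 0.86 (log2, SE 0.13, adjusted p = 0.0276 from limma) against 0.82 (SE 0.14, adjusted p = 0.112) without the set. Pcp2, known from Purkinje cells, rose at D2 by 0.87 (SE 0.11, adjusted p = 0.00434). At D3, Krt31, a hair keratin, rose by 1.35 (SE 0.14, adjusted p = 0.000600), Srsf5 rose by 1.05 (adjusted p = 0.00615) and the chaperone gene Hspa8 fell by 0.94 (adjusted p = 0.0259). With 5 and 8 of 32330 probes called, hardly any member of the gland lists could be among them. Their absence from the genes named here is therefore no result about dose.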

How the data were processed

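Total RNA of lung, liver and forestomach of 20 mice was hybridised to 58 two-colour Agilent arrays. Per the file headers, the deposited scanner files hold median intensity values per spot and channel (Feature Extraction 10.7.3.1). The deposited value table holds log2 ratios of Cy5 to Cy3 that the authors normalised by LOWESS on median signals without background correction. The table was used for the split and as an alternative, and its values correlated with those computed here at r of 0.9948 to 0.9977.

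From the intensities, loess-normalised log2 ratios were computed within each array with limma 3.58.1 in R 4.3.3, without background correction. Spots marked as outliers (0.495%) and control spots were left out, and spots of 1 probe were averaged. Of 55681 probes, 26413 matched 20018 symbols through the RefSeq gene table, and the brightest probe stood for a gene. A probe was kept for a tissue where 4 or more of its arrays had Cy5 well above background. Genes were named by lists of cell types and by the 12 largest differences each way, outside the lists, among genes whose sets did not overlap. The members and lists were chosen with earlier results of these data known.

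The sets were compared on the 19 forestomach arrays by description only. Limma with Benjamini-Hochberg adjustment tested lung, liver and dose. Cy3 and Cy5 alone were quantile-normalised over the arrays and only described. Exact permutation tests compared dose, slide and spots above background. The limma p-values rest on the spread between separate mice. The permutation p-values come from reassigning the set labels over the arrays. Array signals carry no read depth, so precision is limited by the number of arrays. On simulated forestomach sets of 32330 probes, 39% of changes of 1 and 100% of changes of 2 (log2) were recovered with 0 false calls. The simulated noise was independent and of equal spread in both sets, without an outlying array or a slide effect. A change of 1 also lies on the 2-fold cutoff itself. These shares therefore check the code and do not carry over to the measured sets.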

Additional observations from a re-analysis of the deposited data

Results flagged for a closer look

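Dixon's test was run on 65 values to find an array far from the rest within the 8 arrays of the other set. It flagged 1 value. The threshold flags about 1 value in 20 by chance, so 1 of 65 is not more than chance gives. The glandular-containing set, which holds mouse 17, was not examined in this way. D3 mouse 16 of the other set had 69.21% of gene spots well above background in Cy5, against 52.4 to 58.2% on the other 7 arrays of that set. It also had 63.1% in Cy3.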

How the results depend on the processing

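Normexp background correction was run on median signals, since the scanner files have no mean signal column. The sets share slide 3 and D1 with 1 set only, so slide and dose effects were estimated with the set in the model and removed. No paired analysis was possible because the sets hold different mice, each giving 1 array per tissue. Counts of probes higher and lower, 153 and 4 as reported, were 140 and 7 in the authors' table, 150 and 8 with normexp, 159 and 15 with processed signals, 76 and 9 with median centring, 142 and 0 with slide removed, 323 and 65 with dose removed, 207 and 24 at 1.5-fold and 620 and 118 with overlap allowed. They were 494 and 7 with Chia1 split at 5.5 or split by Muc5ac, and 153 and 4 at 3.5 or by Pgc. Chosen after seeing the data, slides 1 and 2 gave 166 and 1, and 586 and 3 without mouse 17. Leaving out 1 array gave 145 to 514 higher, at most 194 unless D3 mouse 17 was the one left out (514), and 4 to 13 lower, with 13 without D3 mouse 18 or D1 mouse 9. Lung and liver stayed at 0 calls under the 6 other models and filters, with 0 to 55 and 0 to 1 on leaving out 1 array. Bounds on the quantile scale of Cy5 were also added after seeing the data. A planned limma test of Cy3 between the sets and its alternatives were not run, since Cy3 is part of the ratio that chose the sets. The dose difference of 3.18 became -6.00 mg/kg-bw/day at a split of 5.5 (exact permutation p = 0.766), the slide statistic 8.78 (exact p = 0.0164) and the difference in spots -10.3 points (exact p = 0.00589), against -1.11 within slides 1 and 2. Dose calls at D2 and D3, 5 and 8, were 1 and 0 with median centring, 6 and 8 with set and slide, and 2 to 6 and 1 to 11 on leaving out 1 array. Calls at D3 dropped to 1 when mouse 2 of D0 or mouse 18 of D3 was left out, and to 5 when mouse 1 of D0 or mouse 16 of D3 was. Those at D2 dropped to 2 on leaving out mouse 2 of D0 or mouse 11 or 12 of D2, and to 3 on leaving out mouse 1 or 3 of D0. The 40 named genes that separated the sets by at least 2-fold gave 1320 differences under the alternatives. Of these, 38 moved beyond the spread between arrays, 25 of them to larger and 13 to smaller sizes, and 0 reversed. Genes chosen for a large difference without overlap were unlikely to reverse, so this says nothing of the named genes with smaller differences. The 38 arose under processed signals (15), median centring (13) and Cy5 alone (10). The cause was not tested. Genes near background in both channels have ratios near 0, which limits what a ratio can show.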
